A study of Mus musculus with 4 samples.

Results

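Venous and venular endothelial cells of irradiated and shielded mouse hindlimb muscle were taken from single-cell RNA sequencing libraries by their transcripts. A cell barcode was a member when it had at least 200 genes, at least 500 unique molecular identifiers (UMIs, each 1 counted RNA molecule) and at most 20% mitochondrial UMIs, at least 3 UMIs summed over the endothelial genes Pecam1, Cdh5, Egfl7 and Cldn5, no UMI of Ptprc, Pdgfra or Pax7, at least 3 UMIs summed over Ackr1, Vwf and Selp, and fewer than 3 over the arterial genes Sema3g, Gja5, Stmn2, Gkn3 and Alpl. The rule was met by 209 barcodes, which were 3.19% of the 6544 barcodes that passed the quality limits and 6.44% of the 3247 endothelial barcodes. The other endothelial barcodes numbered 2480, and 558 more had at least 3 arterial UMIs.

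Postcapillary venules and veins collect blood from the capillaries, and the venules are where most leukocytes leave the blood. Their endothelium carries ACKR1, a receptor that binds chemokines without classical signalling, and stores P-selectin (Selp) and von Willebrand factor (Vwf) in Weibel-Palade bodies for fast release. P-selectin lets leukocytes roll, and von Willebrand factor captures platelets. DNA breaks made by X-rays activate the transcription factor p53, and endothelial cells are among the cells of muscle that respond to it.

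The 4 groups were IR 24 hours, CON 24 hours, IR 56 days and CON 56 days, with 1 library each. In all of them the mice were male C57Bl/6J given X-rays to one hindlimb at 5 weeks of age, in 3 fractions of 8.2 Gy. IR is the irradiated limb and CON the lead-shielded limb of the opposite side of the same kind of animal, so that CON cells also came from an irradiated mouse. Limbs were taken 24 hours after the last fraction or 56 days after irradiation, and 3 limbs were pooled per library before live mononucleated cells were sorted. With 1 pooled library per group, no difference between groups was tested. Levels are UMIs of a gene per 1000000 UMIs summed over the members of a library (counts per 1000000, CPM), and 3′ counts are not scaled by transcript length. Intervals in parentheses are exact 95% intervals for counting error only, and they do not cover the spread between animals.

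The libraries held 2763, 1471, 1030 and 1822 barcodes (IR 24 hours, CON 24 hours, IR 56 days and CON 56 days, the order used for every set of 4 values) and 4715202 to 10121978 UMIs. Members numbered 98, 33, 32 and 46. Their UMIs summed to 484825, 205000, 179116 and 212095, with medians of 4147.5, 5390.0, 4443.5 and 3564 UMIs per member, against 3032, 3121, 3199 and 2849 in the other endothelial barcodes. Mitochondrial UMIs made up 5.28%, 3.42%, 3.48% and 6.19% of member UMIs. Of all barcodes, 11 occurred in more than 1 library, and none of these was a member. The doublet caller Scrublet marked 24 of 6544 barcodes (0.367%) and no member, which is too few for it to have worked, so mixed barcodes may remain.

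Members made up 6.36% (5.19 to 7.70) of endothelial barcodes in IR 24 hours and 7.04% (4.89 to 9.74) in CON 24 hours. At 56 days the share was 6.72% (4.64 to 9.36) in IR and 6.04% (4.46 to 7.98) in CON. The intervals overlapped at both times, so no difference in the share of venous members was detectable at these cell numbers with all barcodes kept. Without barcodes with at least 2 UMIs of other-cell markers the CON shares were 2.98% at 24 hours and 2.94% at 56 days. Those of IR stayed within their intervals above, and the difference was not tested. Endothelial barcodes themselves were 60.7% and 35.1% of kept barcodes in IR and CON at 24 hours, and 49.1% and 44.8% at 56 days. Sorting and dissociation can set such shares.

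All 209 members had a Vwf UMI. A UMI of Selp was found in 87 members, of Ackr1 in 53 and of both in 42, and 111 members met the rule through Vwf with neither. The last kind numbered 55 of 98, 11 of 33, 18 of 32 and 27 of 46 members, so the mix differed most between IR and CON at 24 hours. At the threshold, 50 members had a sum of exactly 3 UMIs and 119 endothelial barcodes with few arterial UMIs stopped at 2. A further 89 barcodes reached 3 venous UMIs and were left out for their arterial genes. Those just inside the threshold had 594, 400.1, 485 and 510.0 CPM of Vwf, against 383, 360.2, 490.0 and 476 in those just outside. Plvap, a gene the rule did not use, had 297, 0, 620.1 and 563 CPM just inside the threshold and 168, 57.6, 387 and 64.4 just outside.

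Genes outside the rule were read as a check of the label. Lrg1 (ENSMUSG00000037095, GRCm38 chr17:56119678-56122001, minus strand), a secreted glycoprotein gene and a marker of venous endothelium, had 390, 1083, 475 and 387 CPM in members, against 9.40, 11.6, 6.48 and 9.93 in the other endothelial barcodes. Plvap (ENSMUSG00000034845, chr8:71497765-71511752, minus strand), which encodes the diaphragm protein of fenestrae and caveolae, had 1320.1, 2088, 1608 and 1188 in members and 102, 57.9, 156 and 100.4 in the others. Nr2f2, the gene of the transcription factor COUP-TFII that specifies veins, had 260, 273, 290.3 and 212 in members, against 77.7, 76.4, 60.7 and 54.0. In each of the 4 libraries these genes stood higher in members, Lrg1 by 38.9-fold to 93.5-fold, Plvap by 10.3-fold to 36.1-fold and Nr2f2 by 3.35-fold to 4.78-fold. Ephb4, the receptor that marks veins in development, differed less, with folds of 1.18, 2.00, 2.06 and 1.43.

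**Figure D1:**
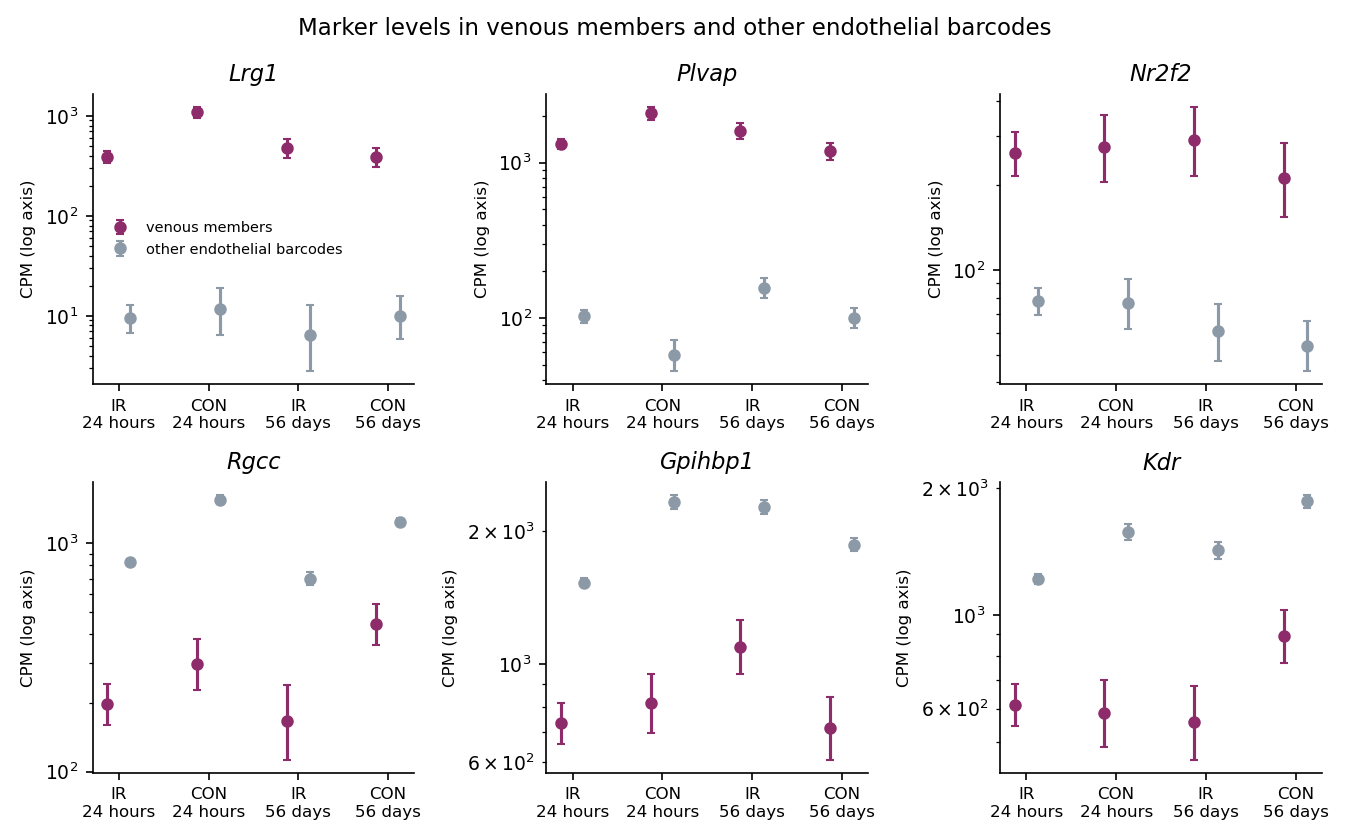
CPM (log axes) of 3 venous genes and 3 capillary genes in venous members and in other endothelial barcodes of each library, with exact 95% intervals for counting error as bars. Lrg1, Plvap and Nr2f2 stood above the other endothelial barcodes in all 4 libraries, and Rgcc, Gpihbp1 and Kdr below them.

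Over all genes measured in every library, 132 of 7146 (1.85%) were at least 1.5-fold higher in members in all 4 libraries and 158 (2.21%) were at least 1.5-fold lower. Because the members were chosen on transcripts of these cells, these counts describe the choice and carry no test. Of 12 measured genes of a venous list, 8 were higher throughout and 1 lower. The lower gene, none of those named above, stood at log2 ratios of -0.80 in IR 24 hours, -4.90 in CON 24 hours and -2.62 in CON 56 days. Of 15 capillary genes, 10 were lower throughout and 0 higher, and of 12 arterial genes outside the rule, 5 were lower throughout and 3 higher. Besides Lrg1 and Plvap, the genes furthest higher included 2 of that arterial list, Eln and Clu. Eln (elastin) stood at 10.5-fold, 15.5-fold, 11.8-fold and 16.4-fold, and Clu (clusterin) at 16.2-fold, 37.9-fold, 13.1-fold and 12.0-fold. Chp2 (a calcineurin B-like protein gene) stood at 24.8-fold, 35.6-fold, 13.3-fold and 24.1-fold. Vcam1, the adhesion receptor for leukocyte integrins, was 14.8-fold, 37.9-fold, 5.64-fold and 11.3-fold higher. Among capillary genes, Rgcc stood at 0.239, 0.192, 0.239 and 0.357 of the level in other endothelial barcodes. Gpihbp1, which carries lipoprotein lipase to the capillary lumen, stood at 0.481, 0.351, 0.484 and 0.386, and Kdr, the main VEGF receptor gene, at 0.503, 0.372, 0.393 and 0.480.

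Vwf is also made by megakaryocytes, and Selp by platelets. Of 8 platelet and megakaryocyte markers, 1 or 2 were found in members of each library, with 12, 6, 6 and 1 UMIs in all, and Ppbp, Gp9 and Gp1bb had none in any library. Of 6 lymphatic markers, 4 were found in IR 24 hours and 1 in each other library, with 16, 4, 8 and 6 UMIs, and Mmrn1 and Pdpn had none in any library. Pericyte markers were present in 33 of 98, 7 of 33, 6 of 32 and 11 of 46 members. They summed to 1025, 1668, 614 and 123 CPM, and 1 member held 56.4% of them in CON 24 hours and another 92.7% in IR 56 days. Smooth muscle markers summed to 272, 1156, 558 and 396 CPM, in 34 of 98, 24 of 33, 14 of 32 and 20 of 46 members. In other endothelial barcodes they summed to 113, 47.1, 343 and 71.1 CPM. Myofibre markers summed to 493, 488, 151 and 137 CPM in members. Only 49 of the 209 members held fewer than 2 UMIs over all other-cell markers but the erythroid ones. Where pericyte genes bear on a value below, this is said beside it.

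As a level of free RNA, the barcodes of leukocytes, which should lack the venous genes, were read in the same way. Ackr1 was found in 0 of 155, 281, 102 and 334 of them, which allows shares of up to 2.35%, 1.30%, 3.55% and 1.10%. Vwf was found in 0.645%, 0.356%, 3.92% and 0.599% and Plvap in 0%, 0%, 1.96% and 0.299%. Lrg1, which neutrophils also make, had 14.3, 55.5, 72.0 and 157 CPM in these leukocyte barcodes. These barcodes had medians of 3018, 4145, 4241.5 and 5018.5 UMIs.

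Members with and without Ackr1 or Selp differed in genes that the rule did not use. Pooled over libraries, the 98 members with a UMI of Ackr1 or Selp had 942 CPM of Lrg1, against 106 in the 111 members with Vwf alone, a ratio of 8.86 (6.71 to 11.9). The ratio was 16.2 (10.8 to 25.3) without CON 56 days, where it was 2.37 (1.49 to 3.83), and 5.90 (4.42 to 8.02) without CON 24 hours. Lrg1 was found in 75 of 98 and 23 of 111 of them. Plvap had 2488 and 435 CPM in these groups, a ratio of 5.72 (4.97 to 6.61), and Nr2f2 had 339 and 173, a ratio of 1.96 (1.52 to 2.55). Eln, Bgn, Ptgs1 (cyclooxygenase-1), Vcam1, Prss23 and Icam1 were also higher with Ackr1 or Selp, by ratios of 3.26 to 3.91, and Clu by 5.97. Without CON 56 days Ptgs1 stood at 5.73 and Vcam1 at 5.86, and without IR 24 hours Icam1 stood at 5.39 and Clu at 10.5.

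Of 12 measured genes of the venous list, 11 were at least 1.5-fold higher with Ackr1 or Selp and 0 lower, against 11.8% and 19.5% of 6992 measured genes. Of 14 capillary genes, 10 were lower and 2 higher, and of 11 genes of an arterial list, 5 were lower and 4 higher. Among the lower ones, Rgcc stood at a ratio of 0.158 (0.110 to 0.221), Gpihbp1 at 0.242 and Timp4, a metalloproteinase inhibitor gene, at 0.0858 (0.0536 without IR 56 days), with 46.9 CPM in members with Ackr1 or Selp and 547 in those with Vwf alone. Efnb2, the ephrin ligand that marks arteries, had 19.8 and 129 CPM. The capillary genes Fabp4, a fatty acid binding protein gene, at 1.56 (1.52 to 1.61) and Sgk1, a kinase gene, at 3.03 (2.07 to 4.54) were higher with Ackr1 or Selp, as were the arterial list genes Eln, Clu, Fbln5 (fibulin-5) at 3.47 (2.09 to 6.01) and Mgp (matrix Gla protein) at 1.52 (1.11 to 2.09). Mgp was 1.01 (0.707 to 1.45) without CON 24 hours, 1.15 (0.822 to 1.61) without IR 56 days and 6.29 without IR 24 hours. Ephb4 at 1.09 (0.811 to 1.47) did not differ beyond counting error. Median depth was higher in members with Ackr1 or Selp, at 5080.0, 6185, 5524.5 and 3996 UMIs, against 3410.0, 4492, 4020.5 and 3358 in those with Vwf alone, and its part in the result was not tested. Members with Vwf alone are called by that rule here, since most of the measured venous list was lower in them.

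**Figure D2:**
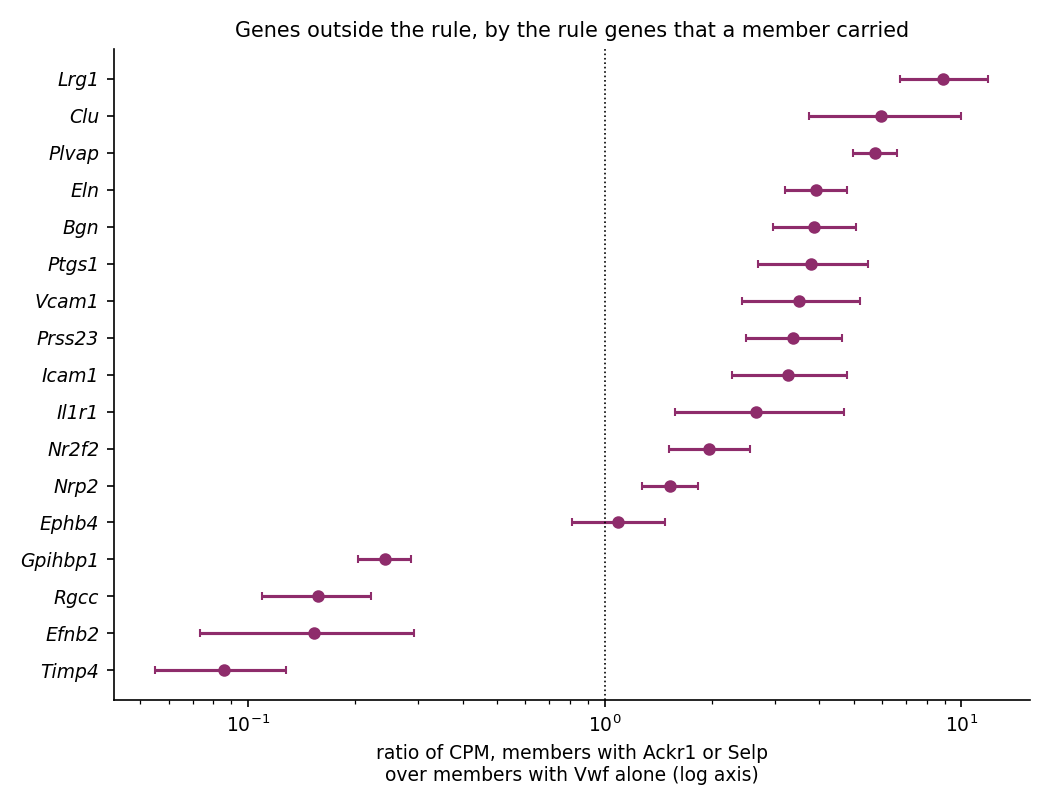
Ratio of CPM (log axis) of members with a UMI of Ackr1 or Selp over members with Vwf alone, pooled over the 4 libraries, with 95% intervals for counting error. Venous genes such as Lrg1 and Plvap lie right of 1, Ephb4 overlaps 1, and the capillary and arterial genes Gpihbp1, Rgcc, Efnb2 and Timp4 lie left of it.

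The IR over CON comparisons ask what the dose left in these cells after 24 hours and after 56 days. Cdkn1a (ENSMUSG00000023067, chr17:29090976-29100727, plus strand), which encodes the cell cycle inhibitor p21 and is a direct target of p53, had 1881 CPM in IR 24 hours, 161 in CON 24 hours, 949 in IR 56 days and 51.9 in CON 56 days. It was found in 89 of 98 members, 10 of 33, 24 of 32 and 5 of 46. The ratio was 11.7 (8.26 to 17.1) at 24 hours and 18.3 (9.97 to 37.4) at 56 days, against 7.15 (6.50 to 7.88) and 10.5 (9.28 to 12.0) in the other endothelial barcodes. Members with and without Ackr1 or Selp gave ratios of 13.6 and 9.08 at 24 hours and of 17.3 and 19.0 at 56 days. In leukocyte barcodes, which can express the gene themselves, Cdkn1a was found in 23.9%, 5.69%, 19.6% and 10.8%.

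The RefSeq table of promoters for GRCm38.p6 lists an upstream start of Cdkn1a at chr17:29090729-29091028 (plus strand, 250 bases before to 50 bases after the start). It is shown because it was the single promoter among 21 listed p53 target genes with a table entry that held a full p53 site, a motif found in 24 of 32851 promoters (0.0731%). Capitals mark the 2 half-sites, which begin 73 and 51 bases before the start, and 3′ counts do not tell which start the Cdkn1a transcripts used.
Cdkn1a promoter: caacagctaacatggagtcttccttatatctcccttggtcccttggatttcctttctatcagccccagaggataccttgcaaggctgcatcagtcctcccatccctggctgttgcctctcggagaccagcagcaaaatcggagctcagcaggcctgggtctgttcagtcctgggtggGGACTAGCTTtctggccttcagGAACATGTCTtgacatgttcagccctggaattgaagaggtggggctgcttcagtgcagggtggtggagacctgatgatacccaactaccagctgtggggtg
The other listed Cdkn1a start, at chr17:29093519-29093818, held no match in its window. A match is a run of letters and no measure of binding.

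Of 25 measured p53 targets at 24 hours, 21 were at least 1.5-fold higher in IR members and 0 lower, with a median log2 ratio of 2.20. Of all 5484 genes measured in members at 24 hours, 25.4% were at least 1.5-fold higher and 13.5% lower, with a median log2 ratio of 0.12. In the other endothelial barcodes 21 of 29 targets were higher (18.7% of all genes there), with a median of 1.40. Summed over the list, the members had a median of 7055 CPM in IR 24 hours, with a range of 1254 to 24169, and of 2003 in CON 24 hours, with a range of 0 to 6011. The cells overlapped, and the IR median lay above the highest CON member.

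Mdm2, the ubiquitin ligase gene that p53 switches on against itself, had 215 CPM in IR 24 hours and 34.1 in CON 24 hours, a ratio of 6.28 (2.94 to 16.0). Bax, the gene of a mitochondrial death effector, had 922 and 293, a ratio of 3.15 (2.40 to 4.20). Gdf15, a stress cytokine gene, had 173 UMIs in IR 24 hours, in 46 of 98 members, and 0 in CON 24 hours, at least 24.4-fold higher against a floor of 3 UMIs per library. Trp53inp1, which encodes a p53-induced nuclear protein, had 245 and 19.5 CPM, a ratio of 12.6 (4.79 to 46.9), against 3.81 (3.09 to 4.75) in other endothelial barcodes. These intervals do not overlap, although CON members held only 4 UMIs of the gene. Exoc4, an exocyst subunit gene, had a ratio of 14.7 (6.19 to 45.9) in members and 3.82 (3.15 to 4.68) in the others.

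At 56 days, 13 p53 targets were measured in members, of which 9 were at least 1.5-fold higher and 3 lower, with a median log2 ratio of 1.72. Of all 3543 genes measured at this time, 22.6% were higher and 20.9% lower, with a median of 0.07. In the other endothelial barcodes 20 of 27 targets were higher and 2 lower (13.7% and 13.5% of all genes there). Phlda3, a repressor of Akt signalling, had 357 CPM in IR 56 days and 51.9 in CON 56 days, a ratio of 6.89 (3.60 to 14.5), against 14.8 (11.4 to 19.3) in other endothelial barcodes. Bax had 631 and 146, a ratio of 4.32 (2.88 to 6.65). Gdf15 had 22 UMIs in IR 56 days, 41% of them in 1 member, and 1 in CON 56 days, a ratio of 26.1 (4.21 to 1075). Trp53inp1 had 50.2 and 47.1 CPM, a ratio of 1.07 (0.383 to 2.92), while other endothelial barcodes gave 3.85 (2.83 to 5.30). The summed list had a median of 3767 CPM per member in IR 56 days, with a range of 1130 to 8424, and of 1427 in CON 56 days, with a range of 0 to 3979. The cells of the 2 groups overlapped. Among members with Ackr1 or Selp, 5 targets were at least 1.5-fold higher at this time, with fewer measured.

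**Figure D3:**
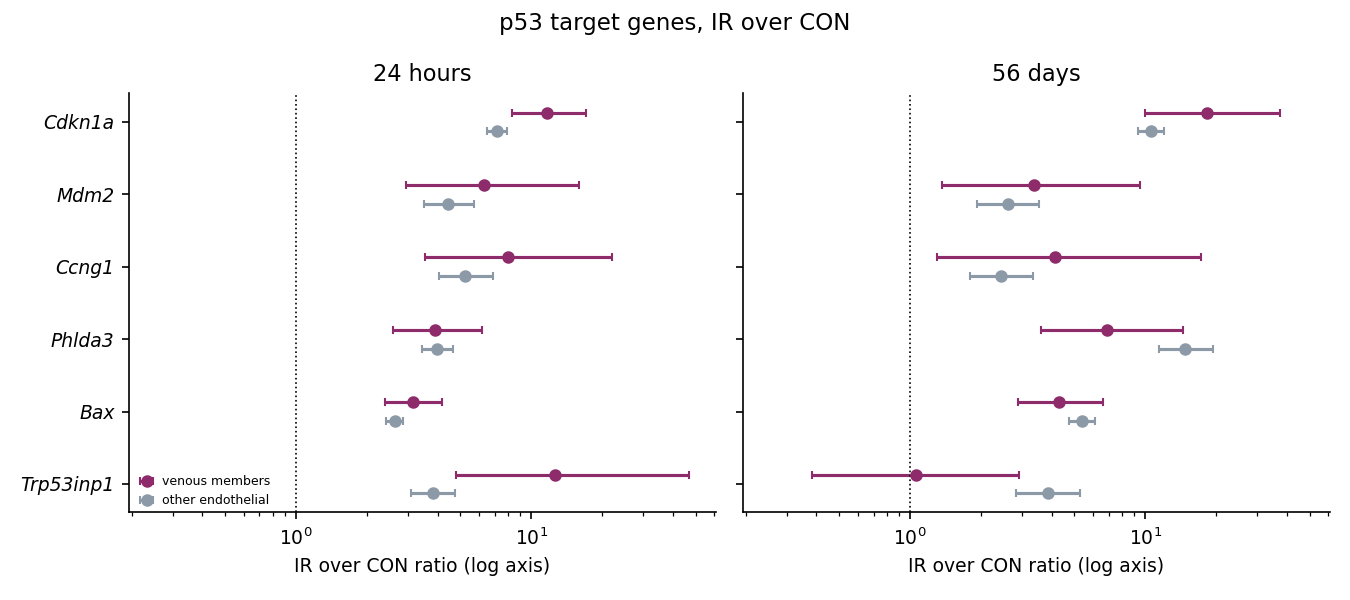
IR over CON ratio (log axis) of 6 p53 target genes in venous members and in other endothelial barcodes at 24 hours and at 56 days, with 95% intervals for counting error. At 24 hours all ratios lie above 1, and at 56 days the ratio of Trp53inp1 in members, 1.07, is the one whose interval includes 1.

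Genes of no p53 list that stood furthest higher included Ltc4s, the leukotriene C4 synthase gene, with 100 UMIs in IR 24 hours, 2 in CON 24 hours, 50 in IR 56 days and 0 in CON 56 days. Its ratio was 21.1 (5.70 to 177) at 24 hours, and at 56 days it was at least 19.7-fold higher. Ltc4s was lower in members with Ackr1 or Selp than in those with Vwf alone, at 39.7 and 247 CPM over all libraries. Cox6b2, a cytochrome c oxidase subunit gene, had 94, 0, 16 and 0 UMIs, at least 13.2-fold and at least 6.32-fold higher. Gas6, the ligand gene of the TAM receptors that is also active in haemostasis, had 1287, 541, 899 and 363 CPM, with ratios of 2.38 (1.94 to 2.94) and 2.48 (1.88 to 3.29), against 2.57 and 2.88 in other endothelial barcodes.

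At 24 hours most of the measured venous genes stood lower in IR members. Of 11 measured genes of the venous list, 0 were at least 1.5-fold higher and 7 lower, with a median log2 ratio of -0.66. The shares of all genes in members were 25.4% and 13.5%. The other 4 lay within 1.5-fold, among them Nr2f2, whose levels are given above. In other endothelial barcodes 2 of 12 were higher, near the 18.7% of all genes there, and 0 lower, against 5.9%. Lrg1 had 189 UMIs in IR 24 hours and 222 in CON 24 hours although IR held more members, and the ratio was 0.360 (0.295 to 0.439). Plvap gave 0.632 (0.559 to 0.716), against 1.77 (1.38 to 2.29) in the other endothelial barcodes. Vcam1 had 94.9 CPM in IR 24 hours and 293 in CON 24 hours, a ratio of 0.324 (0.216 to 0.484). Prss23, a serine protease gene, gave 0.525 (0.386 to 0.715) and Ptgs1 0.502 (0.350 to 0.722).

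Members with Vwf alone, which carry little Lrg1, made up more of IR 24 hours than of CON 24 hours, so the same ratios were taken within members with Ackr1 or Selp, 43 in IR and 22 in CON. There Lrg1 gave 0.397 (0.323 to 0.488), Plvap 0.635 (0.558 to 0.724), Vcam1 0.394 (0.256 to 0.602), Prss23 0.507 (0.360 to 0.714) and Ptgs1 0.519 (0.351 to 0.767). The ratios within that group lay close to those over all members, of which it is a part. At 24 hours it held 37 of the 49 IR members and 16 of the 17 CON members with a Lrg1 UMI. The part of the mix of members in these ratios was therefore not tested. Ackr1 and Selp, which the rule used, had 136 and 204 CPM in IR 24 hours and 263 and 341 in CON 24 hours. One CON 24-hour member held 27% of the Lrg1 UMIs and another 37% of the Vcam1 UMIs, and pericyte and smooth muscle markers summed higher in CON, whose part in these ratios beyond the sets named next was not tested. Without members that carried at least 2 UMIs of other-cell markers, 23 and 5 members and 2 genes of the list were left, neither of them 1.5-fold lower, and Plvap had 48 UMIs in IR and 0 in CON. Without members that had at least 5 pericyte UMIs, Plvap stood at 0.529 (0.466 to 0.601) and Vcam1 at 0.294 (0.195 to 0.440).

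At 56 days venous genes went in both directions, near the shares of all genes. Of 11 measured genes, 2 were at least 1.5-fold higher and 2 lower, against 22.6% and 20.9% of all genes, with a median log2 ratio of 0.29. Lrg1 had 475 CPM in IR 56 days and 387 in CON 56 days, a ratio of 1.23 (0.895 to 1.68). It was 1.72 (1.20 to 2.48) among the 14 and 19 members with Ackr1 or Selp, where Vwf-alone members held 1 Lrg1 UMI in IR and 31 in CON. One IR 56-day member held 36% of the Lrg1 UMIs, and without the member with most Lrg1 UMIs in each library the ratio was 0.986 (0.678 to 1.43). Plvap gave 1.35 (1.14 to 1.61) and Vcam1 0.780 (0.461 to 1.30). Icam1 (chr9:21015985-21028817), the receptor on which leukocytes arrest, had 190 CPM in IR 56 days and 66.0 in CON 56 days, a ratio of 2.88 (1.50 to 5.80), against 2.97 (2.09 to 4.27) in other endothelial barcodes. One IR member held 44% of its UMIs, and without the top members it was 1.94 (0.892 to 4.37). Whether the 2 times differ was not tested.

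**Figure D4:**
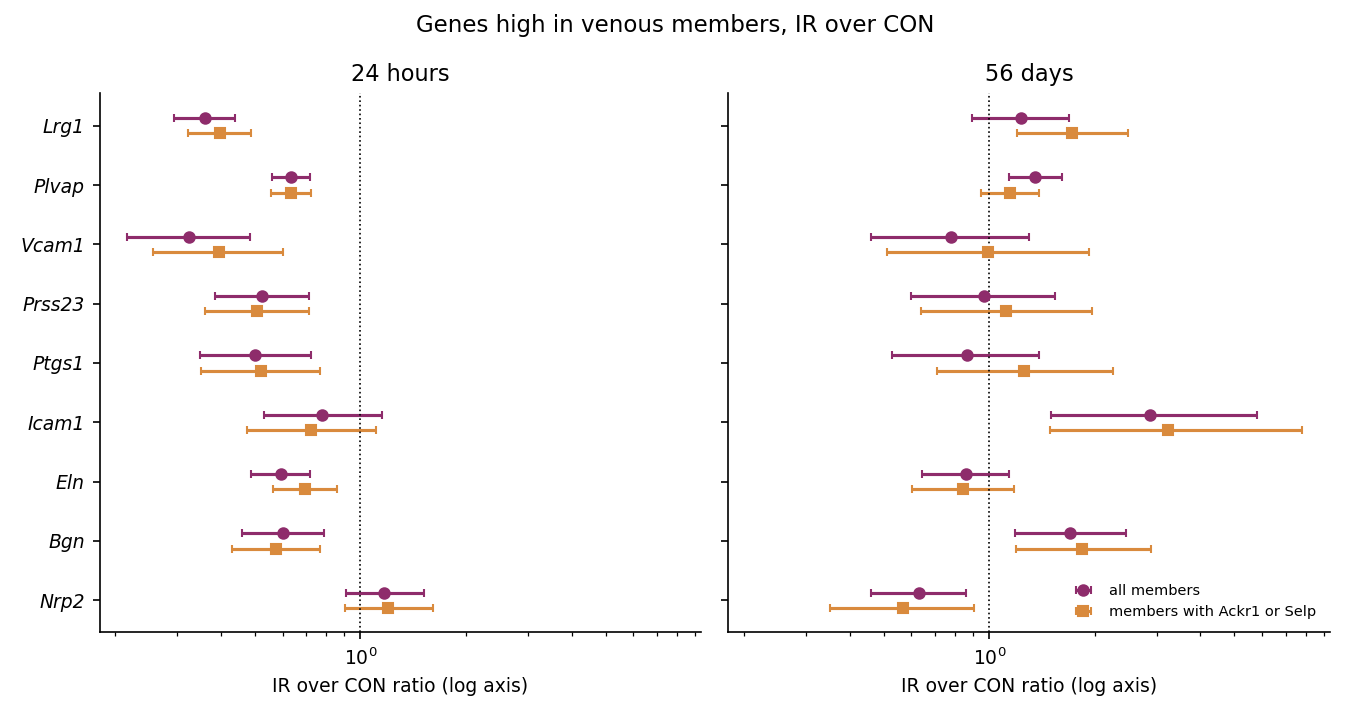
IR over CON ratio (log axis) of 9 genes that were high in venous members, for all members and for members with a UMI of Ackr1 or Selp, at 24 hours and 56 days, with 95% intervals for counting error. At 24 hours Lrg1, Plvap, Vcam1, Prss23, Ptgs1, Eln and Bgn lie below 1 in both sets, and at 56 days Icam1 and Bgn lie above 1 and Nrp2 below it.

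Adhesion and cytokine genes were few at these depths. Of 11 adhesion genes measured at 24 hours, 1 was at least 1.5-fold higher and 3 lower, and of 10 at 56 days, 4 were higher and 0 lower. Of all genes 25.4% were higher and 13.5% lower at 24 hours and 22.6% and 20.9% at 56 days. Emcn, endomucin, a sialoglycoprotein gene of venous and capillary endothelium, had a ratio of 0.555 (0.460 to 0.671) at 24 hours and 0.983 (0.782 to 1.24) at 56 days. Icam2, a constitutive leukocyte ligand, stood at 2.13 (1.34 to 3.45) at 56 days. Of 11 chemokine and cytokine genes at 56 days, 5 were higher and 3 lower, again with 22.6% and 20.9% of all genes. Socs3, a feedback inhibitor of cytokine signalling, had 145 CPM in IR 56 days and 37.7 in CON 56 days, a ratio of 3.85 (1.69 to 9.83), against 1.02 (0.674 to 1.53) in other endothelial barcodes. Il6st, the gp130 receptor chain gene, had 609 and 1259, a ratio of 0.483 (0.383 to 0.606), against 0.982 (0.810 to 1.19) in other endothelial barcodes. The intervals of Socs3 and of Il6st each lay apart from those of the other endothelial barcodes.

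Cxcl12, the gene of a chemokine that retains leukocytes, had 469 and 1273 CPM in IR and CON at 56 days, a ratio of 0.368 (0.285 to 0.472). In members with Vwf alone the ratio was 0.229 (0.160 to 0.322), and it was 1.09 (0.699 to 1.71) in members with Ackr1 or Selp. Of 12 genes of Weibel-Palade bodies and haemostasis measured at 56 days, 6 were higher and 1 lower, against the same shares of all genes. S100a10 and Anxa2, whose proteins form a complex that binds plasminogen at the cell surface, gave 1.71 (1.39 to 2.12) and 1.60 (1.27 to 2.02). At 24 hours 4 of 17 of these genes were higher, near the 25.4% of all genes, and 5 lower, against 13.5%, with S100a10 at 0.570 (0.471 to 0.691) and Anxa2 at 0.709 (0.569 to 0.886). Vwf, used by the rule, had 1132, 1190.2, 832 and 1306 CPM.

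Interferon genes stood higher in IR members at 56 days. Of 16 measured genes of a type I interferon list, 11 were at least 1.5-fold higher (22.6% of all genes) and 0 lower, with a median log2 ratio of 1.07. In other endothelial barcodes 12 of 22 were higher (13.7% of all genes there), with a median of 0.80. At 24 hours 3 of 13 were higher in members, near the 25.4% of all genes, and 0 lower, with a median of 0.17. In the other endothelial barcodes 0 of 21 were higher and 8 lower at 24 hours, against 18.7% and 5.9% of all genes there. Isg15 (ENSMUSG00000035692, chr4:156199424-156200818, minus strand), a ubiquitin-like protein gene that interferon induces, had 101, 92.7, 251 and 37.7 CPM in the 4 libraries. Its ratio was 1.09 (0.630 to 1.96) at 24 hours and 6.66 (3.11 to 16.4) at 56 days, against 0.559 (0.483 to 0.648) and 3.77 (3.18 to 4.49) in other endothelial barcodes. Ifit1, an RNA-binding antiviral gene, had 13, 2, 32 and 5 UMIs, with a ratio of 7.58 (2.93 to 24.9) at 56 days. One member held 53% of the Ifit1 UMIs of IR 56 days, and without the top members the ratio was 4.43 (1.41 to 18.3). Irf7, the transcription factor that amplifies interferon, gave 6.39 (2.43 to 21.3) at 56 days, with 27 UMIs in 14 of 32 members against 5 UMIs in 4 of 46.

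The interferon-stimulated response element holds the letters GAAA, any 2 bases and GAAA again, which were searched on both strands, with overlapping matches counted. This repeat was found in 1131 of 32851 promoters (3.44%) and in 7 of the 16 listed interferon genes with a table entry, Ifit1, Ifit3, Ifit3b, Isg15, Rsad2, Bst2 and Stat2. Isg15 and Ifit1 are shown as the genes of this list with the highest ratios among those with a match, with the repeats in capitals, from the RefSeq promoter table for GRCm38.p6. The window of Isg15 is chr4:156200769-156201068 (minus strand), where 3 overlapping matches begin 78, 72 and 66 bases before the start. The window of Ifit1 is chr19:34640639-34640938 (plus strand), where 2 matches on the other strand begin 104 and 85 bases before the start.
Isg15 promoter: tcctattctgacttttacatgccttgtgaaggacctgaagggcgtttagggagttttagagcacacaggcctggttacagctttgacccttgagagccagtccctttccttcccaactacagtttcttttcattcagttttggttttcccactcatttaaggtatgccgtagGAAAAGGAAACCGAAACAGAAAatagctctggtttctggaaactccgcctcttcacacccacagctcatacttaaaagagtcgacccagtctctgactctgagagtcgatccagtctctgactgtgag
Ifit1 promoter: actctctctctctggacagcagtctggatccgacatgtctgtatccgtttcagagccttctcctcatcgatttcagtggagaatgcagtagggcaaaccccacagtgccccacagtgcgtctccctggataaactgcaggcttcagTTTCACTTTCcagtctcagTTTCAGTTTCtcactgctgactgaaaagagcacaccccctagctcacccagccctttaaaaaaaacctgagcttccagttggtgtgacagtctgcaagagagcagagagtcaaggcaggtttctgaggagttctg
Irf7 and Lrg1 held no match of the motifs searched in their windows, which says only that these letters are not there.

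Isg15 was carried mostly by members with Vwf alone. At 56 days it gave 8.06 (3.37 to 23.4) there, with 37 UMIs in IR and 6 in CON, and 4.17 (0.832 to 40.3) among members with Ackr1 or Selp, with 8 and 2. Over all libraries Isg15 had 55.9 CPM in members with Ackr1 or Selp and 171 in those with Vwf alone. In members with Ackr1 or Selp, 4 list genes were measured at 56 days and 2 of them were 1.5-fold higher. The summed list had a median of 3971 CPM per member in IR 56 days, with a range of 1305 to 23117, and of 2185 in CON 56 days, with a range of 0 to 15705. The 2 groups of cells overlapped widely, and 1 member held 10.8% of the list's UMIs in IR 56 days.

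Genes of MHC class I presentation also stood higher at 56 days, but this count depended on the processing. At 56 days 7 of 11 measured genes were at least 1.5-fold higher in IR members and 0 lower, with a median log2 ratio of 0.65, against 22.6% of all genes. Relative to the median of genes of like transcript length, 3 of the 11 were higher, nearer the 22.6% that all genes gave without this step. The count was 4 without barcodes with at least 2 UMIs of other-cell markers, 3 with cells thinned to 1000 UMIs and 4 in members with Ackr1 or Selp. At 24 hours 1 of 11 was higher and 2 lower, against 25.4% and 13.5% of all genes. H2-K1 (chr17:33996017-34000347), a class I heavy chain gene whose counts are uncertain because close relatives share its sequence, had 835, 815, 2110.4 and 1183 CPM, with a ratio of 1.03 (0.854 to 1.24) at 24 hours and 1.78 (1.52 to 2.10) at 56 days. B2m, the light chain gene, gave 1.72 (1.44 to 2.04) at 56 days, against 1.55 (1.47 to 1.63) in other endothelial barcodes. H2-K1 was higher in both kinds of members, at 1.55 (1.19 to 2.02) in those with Ackr1 or Selp and 1.99 (1.61 to 2.46) in those with Vwf alone. The summed list had a median per member of 7542 CPM in IR 56 days, with a range of 3539 to 21730.0, and of 4724 in CON 56 days, with a range of 751 to 13898.

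**Figure D5:**
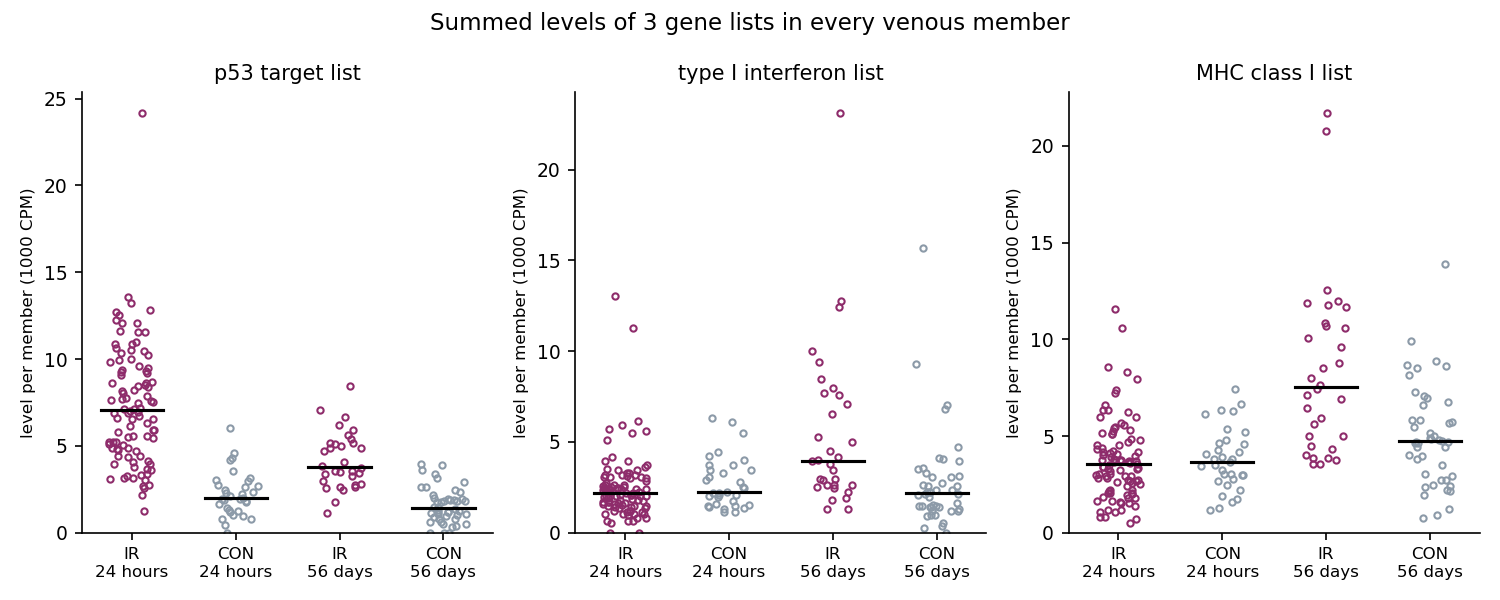
Summed levels (in units of 1000 CPM) of the p53 target, type I interferon and MHC class I lists in every venous member of the 4 libraries, with the median of each library as a line. The p53 medians stood at 7055 and 2003 CPM in IR and CON at 24 hours and 3767 and 1427 at 56 days, and the interferon and MHC class I medians were higher in IR at 56 days, with overlapping cells in each panel.

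Of 11 immediate early genes measured at 56 days, 4 were at least 1.5-fold higher in IR members and 1 lower, against 22.6% and 20.9% of all genes. In other endothelial barcodes 1 of 13 was higher and 3 lower, against 13.7% and 13.5%. Ier3, an early response gene that modulates cell death, had 262 CPM in IR 56 days and 47.1 in CON 56 days, a ratio of 5.57 (2.78 to 12.4), against 1.13 (0.833 to 1.51) in other endothelial barcodes. Junb, an AP-1 subunit gene, had 558 and 203, a ratio of 2.75 (1.91 to 4.03), against 0.996 (0.845 to 1.17). Within members with Ackr1 or Selp the ratios were 6.95 (2.93 to 20.1) for Ier3 and 4.62 (2.66 to 8.52) for Junb, and with Vwf alone 2.29 (0.582 to 10.7) and 1.40 (0.803 to 2.47). Fos (1.21) and Jun (1.02) stayed under 1.5-fold in all members at 56 days, and tissue dissociation is known to induce genes of this group. At 24 hours Ier3 stood at 0.714 and Junb at 0.727.

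Genes of vessel growth differed in direction. Apln, a peptide ligand gene of tip cells, had 34, 7, 32 and 3 UMIs, with ratios of 2.05 (0.896 to 5.49) at 24 hours and 12.6 (3.95 to 64.5) at 56 days, against 4.62 and 9.71 in other endothelial barcodes. Tek, the angiopoietin receptor gene, had 140 CPM in IR 56 days and 457 in CON 56 days, a ratio of 0.305 (0.188 to 0.478), and Kdr gave 0.627 (0.487 to 0.803). Without members that carried at least 2 UMIs of other-cell markers, Kdr turned to a log2 ratio of 0.97 at 56 days, on 34 and 9 UMIs. Of 13 capillary genes measured in members at 24 hours, 1 was higher and 4 lower, against 25.4% and 13.5% of all genes. At 56 days 3 of 13 were higher, the share of all genes being 22.6%, and 5 lower, against 20.9%. Rgcc had ratios of 0.665 (0.478 to 0.933) and 0.378 (0.242 to 0.575), against 0.533 and 0.564 in other endothelial barcodes.

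Of 4 cell cycle genes measured at 24 hours, 2 were at least 1.5-fold higher in IR members and 0 lower, against 25.4% and 13.5% of all genes. Of 6 at 56 days, 3 were higher and 2 lower, against 22.6% and 20.9%. The higher ones were cyclin D genes, which drive entry into the cell cycle. Ccnd1 had 536, 366, 793 and 330.0 CPM, with ratios of 1.47 (1.13 to 1.92) and 2.40 (1.79 to 3.25), against 1.92 and 4.19 in other endothelial barcodes. Ccnd2 gave 1.60 (1.06 to 2.51) and 2.75 (1.78 to 4.34), and Ccnd3 2.30 (1.01 to 6.09) and 2.01 (0.871 to 4.92). The lower ones at 56 days were the proliferation genes Mki67 and Top2a. Mki67, a marker of dividing cells, had 0, 1, 2 and 30 UMIs, and 97% of the 30 in CON 56 days lay in 1 member. Cdkn1c, the p57 cell cycle inhibitor gene, had 61.4 CPM in IR 56 days and 297 in CON 56 days, a ratio of 0.207 (0.0982 to 0.396), against 0.491 (0.436 to 0.552) in other endothelial barcodes.

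Matrix genes differed in direction. Of 21 measured at 24 hours, 4 were at least 1.5-fold higher (Fn1, Col1a1, Lamb1 and Lamb2) and 4 lower (Eln, Bgn, Col15a1 and Nid1), with a median log2 ratio of 0.10, and of 16 at 56 days, 3 were higher and 1 lower. Col1a1 is also a marker of another cell type, fibro-adipogenic progenitors. Their markers summed to 293 CPM in IR 24 hours, with 75.4% of the UMIs in 1 member, and to 63.4 in CON 24 hours. Without the top member of each library the sums were 72.9 and 33.6, and the part of such members in the Col1a1 ratio was not tested. Of all genes 25.4% were higher and 13.5% lower at 24 hours, and 22.6% and 20.9% at 56 days. Fn1, the fibronectin gene, had 39 UMIs in IR 24 hours and 1 in CON 24 hours, a ratio of 16.5 (2.79 to 668). Eln had 526, 888, 497 and 580 CPM, with ratios of 0.592 (0.488 to 0.721) at 24 hours and 0.857 (0.645 to 1.13) at 56 days. Smooth muscle markers were also higher in CON 24 hours, and without members that carried at least 2 UMIs of other-cell markers Eln turned to a log2 ratio of 1.51 at 24 hours, on 26 UMIs in IR and 2 in CON. Without members that had at least 5 pericyte UMIs it was 0.520 (0.425 to 0.636). Bgn, the proteoglycan biglycan, had 285, 473, 424 and 249.9, with ratios of 0.602 (0.461 to 0.788) and 1.70 (1.18 to 2.46). Col15a1, a basement membrane collagen gene, gave 0.405 (0.264 to 0.620) and 1.41 (0.887 to 2.27). The shear stress gene Klf2, a transcription factor that flow induces, had 419, 712, 793 and 499.8 CPM, with ratios of 0.588 (0.473 to 0.732) and 1.59 (1.22 to 2.06). Fabp4, the most abundant of the capillary list genes in members, gave 0.601 (0.581 to 0.622) and 1.22 (1.17 to 1.28).

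The ratios also moved with transcript length. At 24 hours the median log2 ratio in members was -0.26 for the third of genes with the shortest transcripts, 0.17 for the middle and 0.43 for the longest, and at 56 days it was 0.48, 0.05 and -0.37. The other endothelial barcodes showed a smaller gradient of the same signs, at -0.06, 0.11 and 0.27 and then 0.20, -0.0038 and -0.20. Tmsb10, with a longest transcript of 690 bases, had ratios of 0.342 (0.302 to 0.387) and 1.96 (1.65 to 2.34), and Syne1, with 27908 bases, 2.21 (1.40 to 3.61) and 0.228 (0.122 to 0.399). Taken relative to the median of their own length group, 20 of the 25 p53 targets at 24 hours and 9 of 13 at 56 days were still 1.5-fold higher, as were 9 of 16 interferon genes at 56 days. On the same scale 6 of 11 venous genes were lower at 24 hours. The counts of all genes past 1.5-fold on this scale lay within a factor of 1.5 of those without this step. Without it, 25.4% of all genes were higher and 13.5% lower at 24 hours, and 22.6% and 20.9% at 56 days. The part of length in the other ratios was not tested.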

How the data were processed

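UMI counts per gene and barcode were deposited by the authors as 1 matrix per library, with 32285 genes. Libraries were made with Chromium v3 chemistry, per the labels and the design text, and reads were processed with Cell Ranger 5.0.0 on mm10, per the submitters' processing notes. The 4 matrices held 7086 barcodes and 30020136 UMIs, and 6544 barcodes passed the quality limits. Groups came from the sample titles.

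UMIs were summed over the members of a library and scaled to their total (CPM). Exact 95% limits were computed as binomial for shares, Poisson for levels and conditional binomial for ratios. They cover counting error only. Genes with at least 20 UMIs over both libraries of a comparison counted as measured, and 1.5-fold was the size counted. Log2 ratios used a prior count of 0.5, and folds against 0 a floor of 3 UMIs in a library. No p-value was computed, since each group had 1 library. The ratio interval was tried on simulated Poisson counts per library, the same model that it assumes. That setting holds no uneven spread of UMIs over members, so it cannot show how the interval behaves under such spread. Free RNA and doublets were not removed.

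Genes were named by rule: the 4 markers, Cdkn1a, Mdm2, Ccng1 and Phlda3, 2 to 4 leading genes of each list described, and, ranked by the interval limit nearest to 1, 6 higher and 6 lower genes of each IR over CON comparison. Against other endothelial barcodes, 10 higher and 6 lower genes were taken by their least favourable limit over the 4 libraries. Mitochondrial, ribosomal, haemoglobin, immunoglobulin, Y-linked and predicted genes and other-cell markers were left out of the ranking in the IR over CON comparisons. Nr2f2, Ephb4, Efnb2, Mgp and 4 matrix genes (Col1a1, Lamb1, Lamb2 and Nid1) were named after their values were seen. The members and lists were chosen with earlier results of these data known.

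Positions and transcript lengths are those of GRCm38, and promoters are from RefSeq. Python 3.11.15, numpy 2.4.6, pandas 2.3.3, scipy 1.17.1, scanpy 1.11.5 and matplotlib 3.10.9 were used.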

Additional observations from a re-analysis of the deposited data

Results flagged for a closer look

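For 11 of the named genes the IR over CON ratio in members lay past 1.5-fold in opposite directions at 24 hours and at 56 days. Their intervals were clear of 1 at both times. The difference between the times was not tested. The named genes measured numbered 119 at 24 hours and 112 at 56 days, and many were named for their ratios in these same comparisons. The share of all measured genes with opposite directions was not computed, so the count is not shown to be unusual. Values are log2 ratios at 24 hours and then at 56 days. Tmsb10, a short actin-binding peptide gene, stood at -1.55 and 0.97, and S100a10 at -0.81 and 0.78. Syne1, a nuclear envelope gene with a very long transcript, stood at 1.13 and -2.10, and Bmpr2, the BMP receptor gene, at 0.68 and -0.93. Bgn stood at -0.73 and 0.76, the flow-induced gene Klf2 at -0.76 and 0.66, and Ramp2, the adrenomedullin receptor partner gene, at -0.64 and 0.90. The BMP target Id3 stood at -0.73 and 0.62 and Igfbp7, a secreted growth factor binding protein gene, at -0.61 and 0.60, and at 0.033 at 24 hours with a gate of at least 2 UMIs of Ackr1 and Selp. Cd63, a tetraspanin gene of Weibel-Palade bodies, stood at -1.21 and 2.61 with few UMIs, and without members that had at least 5 pericyte UMIs its ratio at 24 hours was 1.10 (0.374 to 3.89), and its log2 ratio was 0.20 without the top 5% of Scrublet scores. Vtn, a gene that pericytes make, stood at -3.35 and 5.91, with all 115 UMIs of CON 24 hours in 2 members and all 27 of IR 56 days in 1. Genes with the shortest transcripts had median log2 ratios of -0.26 and 0.48 in members. Those with the longest had 0.43 and -0.37. Tmsb10, S100a10, Ramp2, Id3 and Igfbp7, with longest transcripts of 685 to 1478 bases, had the signs of the shortest group. Bgn, Klf2, Cd63 and Vtn, at 1744 to 2894 bases, had the same signs. Syne1 and Bmpr2, at 27908 and 12899 bases, had those of the longest group. The part of length in these ratios was not tested.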

How the results depend on the processing

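With 1 pooled library of 32 to 98 members per group, neither the spread between animals nor that between libraries can be measured, and genes under 20 UMIs could not be read. No paired analysis was possible because each group had 1 library. Every alternative with a smaller or shallower set of members also measured fewer genes. Counts of listed genes in the alternatives below are given without the number measured there, so they cannot be read as shares. Alternatives that kept members with Ackr1 or Selp, left out the top member of a gene, left out members with at least 5 pericyte UMIs, left out a library when the kinds of members were compared, or took ratios relative to the median of a length group were chosen after seeing the data. Over the named genes, 1201 of 1387 alternative values lay within the counting interval of the main ratio at 24 hours, and 180 moved outside it. A change of sign was counted only for genes past 1.5-fold, 63 of 119 at 24 hours and 80 of 112 at 56 days. Such changes numbered 6 at 24 hours. At 56 days 1098 of 1254 values lay within the interval, 147 moved and 9 changed sign. Of the genes past 1.5-fold, 39 of 63 at 24 hours and 47 of 80 at 56 days shifted by more than 1.5-fold under at least 1 alternative. Alternatives in which a gene had under 20 summed UMIs were left out of these values for that gene.

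A gate of at least 5 venous UMIs left 121 members and shares of 3.57%, 4.26%, 3.78% and 3.68% (IR 24 hours, CON 24 hours, IR 56 days and CON 56 days). At 56 days 5 p53 targets and 2 interferon genes were then at least 1.5-fold higher, 409 of all genes were lower, and 327 genes were lower than in other endothelial barcodes in all 4 libraries. A gate of at least 2 UMIs of Ackr1 and Selp left 70 members and shares of 2.01%, 3.62%, 1.68% and 1.84%. It gave 672 genes higher and 440 lower at 24 hours, 387 higher and 172 lower at 56 days, 4 p53 targets and 1 interferon gene higher at 56 days, and 492 genes lower than in other endothelial barcodes. Leaving out barcodes with at least 2 UMIs of other-cell markers left 49 members, with shares of 2.98% in CON 24 hours and 2.94% in CON 56 days. The IR shares stayed within the intervals of their main values, 5.19 to 7.70 at 24 hours and 4.64 to 9.36 at 56 days. This alternative changed other counts as well. With these barcodes left out, 166 genes were higher and 187 lower at 24 hours, and 311 higher and 70 lower at 56 days. Of p53 targets 9 were higher at 24 hours and 5 at 56 days. Of venous genes 0 were lower at 24 hours, and 3 interferon and 4 MHC class I genes were higher at 56 days. Against other endothelial barcodes 14 genes were then higher and 86 lower.

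Thinning each cell to 1000 UMIs gave shares of 2.07%, 2.00%, 1.76% and 2.03%, with 244 genes higher and 236 lower at 24 hours and 167 higher and 93 lower at 56 days. Of p53 targets 10 were higher at 24 hours and 2 at 56 days, and 1 interferon and 3 MHC class I genes were higher at 56 days. Against other endothelial barcodes 28 genes were higher and 105 lower. With at least 10 summed UMIs, 2252 genes were higher and 1282 lower at 24 hours, and 1384 higher and 1417 lower at 56 days. With at least 50, the counts were 534 and 318 at 24 hours and 318 and 213 at 56 days, with 5 p53 targets and 5 interferon genes higher at 56 days. Members with Ackr1 or Selp gave 849 genes higher at 24 hours and 272 lower at 56 days, with 5 p53 targets, 2 interferon genes and 4 MHC class I genes higher at 56 days. Relative to the length group 3 MHC class I genes were higher at 56 days.

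Single genes past 1.5-fold that changed sign, as log2 ratios, were as follows, and the cause was not tested. Without other-cell markers, Plvap (5.91, against 0 UMIs in CON), Eln (1.51) and Id1 (-0.94) did so at 24 hours and Kdr (0.97), Nfkbia (-0.067) and Tjp1 (0.59) at 56 days. With the gate on Ackr1 and Selp it was Igfbp7 (0.033) at 24 hours and Cxcl12 (0.37) and Sparc (-0.025) at 56 days. Among members with Ackr1 or Selp it was F11r (-0.19) and Cxcl12 (0.13) at 56 days. Igfbp3 (-0.36) changed with the gate of 5 UMIs and Timp4 (0.75) with thinning, both at 56 days. At 24 hours Ifi27l2a (-0.13) changed with equal weight per cell, and Cd63 (0.20) without the top 5% of Scrublet scores.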
